A study of Homo sapiens with 2 samples.

Results

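The cellular machinery that senses sterols and processes the sterol regulatory element-binding proteins (SREBPs) is encoded by 7 genes here, SREBF1, SREBF2, SCAP, INSIG1, INSIG2, MBTPS1 and MBTPS2. They were chosen for their known roles, by a rule that uses no measured value, though earlier results of these data were known by then. Every array probe whose RefSeq transcript belongs to 1 of these genes was used, which gave 10 probes on 19 spots among the 58717 spots of an array that are not controls. The 7 genes stand among 23752 genes and unnamed transcripts with a usable probe.

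The arrays profiled HepG2, an established human hepatoma line that keeps many hepatocyte functions. The aim was to learn how an extract of hawk tea (HTE, a herbal tea of southwestern China) alters gene expression related to cholesterol. Control cells received dimethyl sulfoxide (DMSO, 1 per mille) and the other cells received HTE, and RNA of each was hybridised after 24 h to 1 Cy3-labelled Agilent array. The dose of HTE is 200 μg/mL in the sample labels and 300 μg/mL where the array experiment is described. There was 1 array for each condition, both on the same slide, so no test between the conditions was possible, the spread between cultures is unknown, and array and treatment cannot be told apart. Fewer cells of a kind and less RNA per cell also cannot be told apart in such samples.

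SREBPs are made as membrane proteins of the endoplasmic reticulum (ER), where they are bound to SCAP, a sterol-sensing escort protein. When sterols are abundant, INSIG proteins hold the complex in the ER. When sterols are scarce, SCAP carries SREBP in COPII vesicles to the Golgi, where the site-1 protease (MBTPS1) and then the site-2 protease (MBTPS2) release the part that enters the nucleus and activates sterol and fatty acid genes. In liver, SREBP2 mainly drives cholesterol synthesis and uptake and SREBP1 mainly drives fatty acid synthesis, while the genes SREBF2 and INSIG1 are themselves known SREBP targets.

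The promoter windows of the genes show which of them carry the letters that SREBPs are known to read. For the 7 genes, RefSeq windows of the 250 bases before each annotated transcript start (GRCh38.p14) were searched on both strands for ATCACCCC and TCACNCCAC (forms of the sterol response element), CCAAT (read by NF-Y), GGGCGG (read by Sp1) and CACGTG (the E-box). The windows of SREBF2 (chr22:41832855-41833104, plus strand), INSIG1 (chr7:155297628-155297877, plus strand), SREBF1 (chr17:17836987-17837236, minus strand) and INSIG2 (chr2:118088221-118088470, plus strand) are printed because these genes form the SREBF pair and the INSIG pair, which the results compare. Each is written 5′ to 3′ on the strand of its gene, and capitals mark every match on either strand.
SREBF2: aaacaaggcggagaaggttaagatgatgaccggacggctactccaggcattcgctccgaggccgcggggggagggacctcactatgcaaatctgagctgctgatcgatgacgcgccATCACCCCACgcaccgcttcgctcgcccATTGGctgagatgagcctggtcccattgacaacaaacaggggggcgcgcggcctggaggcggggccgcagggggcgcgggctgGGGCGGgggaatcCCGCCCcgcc
INSIG1: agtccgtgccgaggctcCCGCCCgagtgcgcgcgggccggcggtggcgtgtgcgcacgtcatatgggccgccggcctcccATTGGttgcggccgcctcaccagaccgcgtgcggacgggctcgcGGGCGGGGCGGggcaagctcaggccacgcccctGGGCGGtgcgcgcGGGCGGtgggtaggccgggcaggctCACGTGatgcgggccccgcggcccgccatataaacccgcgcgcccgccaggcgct
SREBF1: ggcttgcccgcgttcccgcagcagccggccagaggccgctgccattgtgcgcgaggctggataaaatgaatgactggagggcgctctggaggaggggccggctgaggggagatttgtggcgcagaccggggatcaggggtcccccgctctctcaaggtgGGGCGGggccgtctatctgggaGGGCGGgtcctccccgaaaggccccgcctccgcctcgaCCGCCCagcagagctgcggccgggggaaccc
INSIG2: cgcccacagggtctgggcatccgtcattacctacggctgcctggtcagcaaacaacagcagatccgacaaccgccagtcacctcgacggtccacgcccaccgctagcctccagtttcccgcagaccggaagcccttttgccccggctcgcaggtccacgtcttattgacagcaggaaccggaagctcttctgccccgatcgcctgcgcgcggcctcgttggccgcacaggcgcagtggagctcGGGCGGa

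In the SREBF2 window, ATCACCCC stood 134 to 127 bases before the start, and TCACNCCAC overlapped it at 133 to 125. SREBF2 was the only one of the 7 genes with either match in its window. Of 35116 promoter windows in the table, 212 (0.604%) held ATCACCCC and 310 (0.883%) held TCACNCCAC. A CCAAT on the other strand lay between this match and the start of SREBF2, at 106 to 102. The INSIG1 window, in which 78.4% of bases were G or C, held 1 CCAAT on the other strand, 5 GGGCGG (the pair at 126 to 121 and 121 to 116 share a base) and 1 CACGTG at 55 to 50. CCAAT occurred in 32.0% of all windows, GGGCGG in 42.6% and CACGTG in 6.34%. SREBF1 and SCAP each had 3 matches to GGGCGG, SCAP also had a CACGTG, INSIG2 had 1 GGGCGG from either of its 2 starts, and MBTPS1 and MBTPS2 had none of the letters searched. A match is a description of the sequence and not a binding site, and the absence of a match says only that these letters are not in this window.

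**Figure D1:**
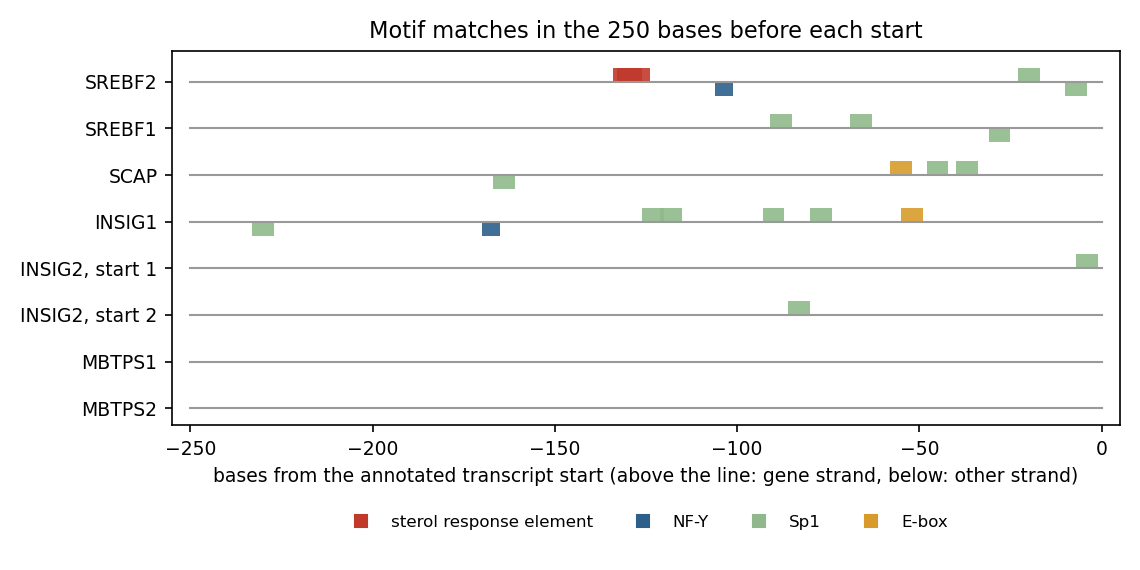
Matches in the 250 bases before each annotated start, drawn to scale with distance from the start in bases on the horizontal axis. Boxes above a line are on the strand of the gene and boxes below it are on the other strand. The overlapping red boxes, at 134 to 125 bases before the start, appear for SREBF2 alone.

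The arrays gave usable readings for all members. The signal used is the processed signal, a background-subtracted intensity, and the scaled signal is its log2 minus the 75th percentile of the same array, which stood at 4020.0 on the DMSO array and 3570.3 on the HTE array. All 10 member probes were well above background on both arrays, against 60.6% of spots on the DMSO array and 56.6% on the HTE array, and no spot was saturated. The log2 ratio is the scaled signal of HTE minus that of DMSO, and the ± beside it is the error that the scanner software assigns to the spots, which covers the reading of an array and not the spread between cultures. All 8 hepatocyte markers were well above background on both arrays, with a summed signal before scaling of 680670 on DMSO and 675840 on HTE. Their log2 ratios were above 0 for 6 and below 0 for 2, FGB at -0.36 and AFP at -0.19. The 6 markers of leukocytes, endothelium and fibroblasts summed to 7889 and 7890, with CDH5 not well above background on either array and COL3A1 not on the HTE array. Within that sum PECAM1, an endothelial marker, fell from a signal of 804 to 203 (log2 ratio -1.82), COL1A1 went from 454 to 261 and CD68 from 4138 to 5070. PTPRC, a leukocyte marker, went from 2351 to 2297, a log2 ratio of 0.14, with -0.88 on another of its probes. The part of these markers in the results was not tested.

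INSIG1 was the member gene that rose at least 2-fold, SREBF2 and INSIG2 had smaller positive ratios, and SCAP, MBTPS1 and the brighter SREBF1 probe had ratios near 0. That is 1 of 7 genes (14.3%) at least 2-fold higher, against 5.25% of all genes, and 0 of 7 at least 2-fold lower, against 3.03%. The log2 ratio was above 0 for 4 of the 7 genes, with a median of 0.33. Of all genes 45.7% were above 0, and their median was 0 with quartiles of -0.28 and 0.27. All genes include probes dim on 1 array, entered as bounds and in part set to 0, which no member probe was. Where dim probes kept their own value, the median of all genes was -0.033. The directions of the members are those after scaling to the 75th percentile. Scaling to the spike-in RNA moved the median of all genes by -1.20, and with it SREBF2, INSIG2 and MBTPS2 were below 0. The 2-fold call of INSIG1 was also lost there (log2 ratio 0.99), with 0 of 7 genes at least 2-fold higher and 3 of 7 at least 2-fold lower. Of all 23752 genes, 144 were at least 2-fold higher and 16035 at least 2-fold lower with that scaling.

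**Figure D2:**
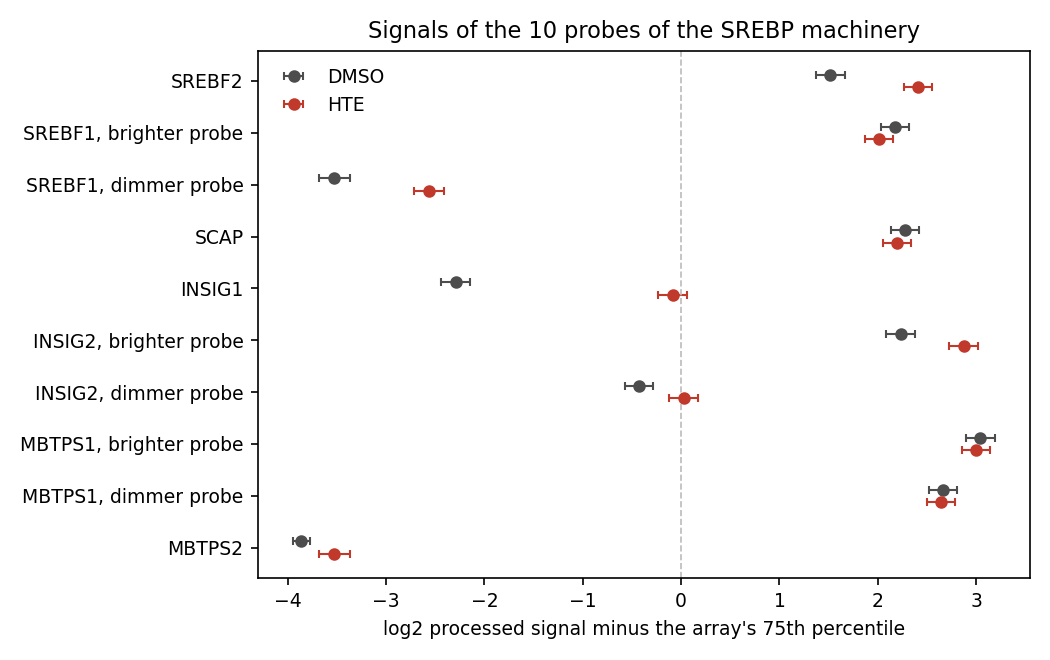
Scaled log2 signal of each of the 10 probes on the DMSO array (grey) and the HTE array (red), on the horizontal axis, with 0 at the 75th percentile of the array. Bars are the error assigned by the scanner software, or for MBTPS2 the SD over its spots. Only the shift within a row is meaningful, since probes differ in brightness, and the INSIG1 points, at -2.29 and -0.087, are the farthest apart.

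SREBF2 encodes SREBP2, the factor that mainly activates cholesterol genes. Its single probe had a signal of 11508 on the DMSO array and 18943 on the HTE array. The scaled log2 signals were 1.52 and 2.41, and the log2 ratio was 0.89 ± 0.20, a 1.85-fold difference. SREBF2 was thus brighter on the HTE array, short of 2-fold, and 1570 genes (6.61%) had a higher ratio.

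SREBF1 encodes SREBP1, the factor that mainly activates fatty acid genes, and was read by 2 probes assigned to the same transcript. The brighter probe had a signal of 18188.5 on DMSO and 14430.1 on HTE, a log2 ratio of -0.16 ± 0.20. The dimmer probe had a signal of 349 on DMSO and 605 on HTE, a log2 ratio of 0.97 ± 0.22. The ratios therefore had opposite signs, though that of the brighter probe was within its reading error. The log2 ratios of the probes differed by 1.13 ± 0.30 (brighter minus dimmer, -1.13). Among probes of all genes, 62.1% had a higher ratio than the brighter SREBF1 probe and 5.94% had a higher ratio than the dimmer one. Across the 3759 genes with several probes, probes of 1 gene had log2 ratios that differed with a median SD of 0.16. SREBF1 therefore had no settled direction on these arrays, and where on the transcript each probe lies was not analysed here.

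SCAP, the sterol-sensing escort of both SREBPs, had a signal of 19469 on DMSO and 16315 on HTE. After scaling these were log2 values of 2.28 and 2.19. The log2 ratio of -0.08 ± 0.20 was within the error of reading the arrays, and 59.1% of all genes had a higher ratio.

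INSIG1 encodes an ER protein that retains the SCAP and SREBP complex and is itself degraded quickly when sterols are scarce. Its single probe had a signal of 822 on DMSO and 3362 on HTE. The scaled log2 signal moved from -2.29 to -0.087, a log2 ratio of 2.20 ± 0.21, or 4.61-fold. No other member came close to this ratio, and only 144 genes (0.606%) among all those measured had a higher one. INSIG1 was at or below the 75th percentile of its array in both conditions.

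INSIG2, the second retention protein, is transcribed from another gene and is not known as a strong SREBP target. Its brighter probe had a signal of 18890.4 on DMSO and 26131 on HTE, a log2 ratio of 0.64 ± 0.20 (1.56-fold). Its dimmer probe had a signal of 2984 on DMSO and 3634 on HTE, a log2 ratio of 0.46 ± 0.20. Both INSIG2 probes were brighter on HTE by less than 2-fold, and the difference between them, 0.18 ± 0.29, was within the reading error. Of all genes, 11.0% had a higher ratio than the brighter probe.

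MBTPS1, the site-1 protease that makes the first cut in the Golgi, was read by 2 bright probes. One had a signal of 33154 on DMSO and 28584 on HTE, and a log2 ratio of -0.04 ± 0.20. The other had a signal of 25423.5 on DMSO and 22340 on HTE, and a log2 ratio of -0.02 ± 0.20. The probes differed from each other by -0.03 ± 0.29, and neither ratio was beyond the reading error.

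MBTPS2, the site-2 protease that makes the second cut within the membrane, was the only member printed on replicate spots, 10 of them, of which 1 was an outlier on DMSO and was left out. The 9 remaining DMSO spots had signals from 258 to 303 with a median of 278, and the HTE spots had signals from 284 to 396 with a median of 294. The ranges of these signals overlapped before scaling, but not once each array was scaled to its own percentile. The probe was dim on both arrays. Averaged over spots, the scaled log2 signal was -3.86 ± 0.086 (SD over spots) on DMSO and -3.52 ± 0.16 on HTE, and the log2 ratio was 0.33. Spot by spot the log2 ratio ran from 0.083 to 0.76, with a median of 0.25 and an SD of 0.21, and was above 0 in 9 of 9 spots. These spots measure the same RNA and are not replicates of the condition.

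**Figure D3:**
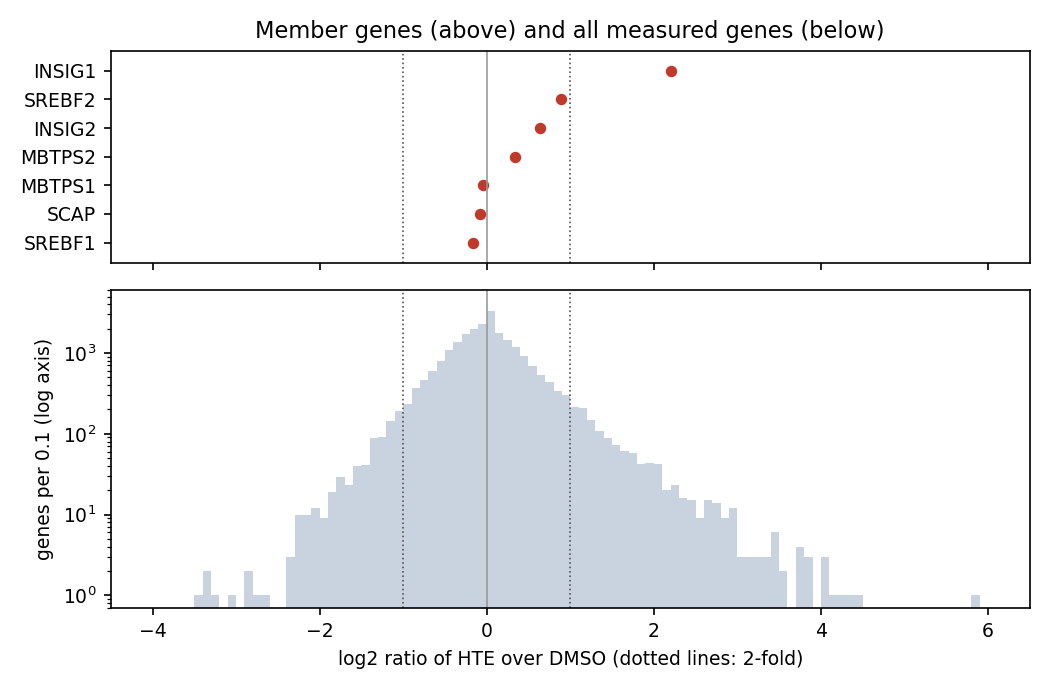
Log2 ratio of HTE over DMSO for the 7 member genes, each by its brightest probe (upper panel), and a histogram of the ratios of all 23752 genes on a log count axis (lower panel). Dotted lines mark 2-fold. INSIG1, at 2.20, lies alone beyond 2-fold, and SREBF1, SCAP and MBTPS1 lie at the centre of the distribution.

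Differences between the ratios of members do not depend on how the arrays were scaled, because scaling by a constant moves every gene alike. INSIG1 exceeded SREBF2 by 1.31 ± 0.29 on the log2 scale, a 2.49-fold difference between their ratios. The next neighbours in order were SREBF2 and INSIG2, which differed by 0.25 ± 0.29, and INSIG2 and MBTPS2, which differed by 0.30 ± 0.31. MBTPS2 lay above MBTPS1 by 0.38 ± 0.31. MBTPS1 and SCAP differed by 0.04 ± 0.29 and SCAP and the brighter SREBF1 probe by 0.08 ± 0.29. The order therefore separates INSIG1 from the others beyond the reading error, whereas most other neighbours lie within it.

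Both pairs of related genes were unequal. INSIG1 exceeded INSIG2 by 1.56 ± 0.29, a 2.96-fold difference between the ratios of the pair. SREBF2 exceeded the brighter SREBF1 probe by 1.05 ± 0.29, or 2.07-fold, but the dimmer SREBF1 probe, at a log2 ratio of 0.97, had a ratio similar to that of SREBF2. SREBF2 exceeded SCAP, its escort, by 0.97 ± 0.29. The inequality of the SREBF pair thus rests on the brighter SREBF1 probe.

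The reading error can also be judged from replicate spots. For each member probe, the 50 replicated probes nearest in signal were taken. Their median SD over spots, in log2 ratio, lay between 0.040 and 0.061 for most members, with 0.087 at the dimmer SREBF1 probe and 0.13 at MBTPS2. By this measure the ratios of INSIG1, SREBF2, SCAP, both INSIG2 probes and both SREBF1 probes exceeded the spread among spots. So did that of MBTPS2, at 0.33, whose own spots had an SD of 0.21. Those of MBTPS1 were about as small as that spread (0.042 and 0.041). The SCAP ratio also shifted with the processing, from -0.26 without scaling to -0.055 with quantile normalization. The spread among spots is smaller than the error the scanner software assigns and leaves out any error shared by the spots of an array.

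Scaling by a constant and the filters on dim probes move the members alike and cannot change their order. Quantile normalization, normexp correction, keeping outlier spots, averaging the probes of a gene and taking the median over replicate spots can change it, and with each of them INSIG1 came first, then SREBF2, then INSIG2. With the other probe of a gene, SREBF1, at a log2 ratio of 0.97, stood above SREBF2, at 0.89. SREBF1 had the widest range apart from spike-in scaling, from -0.33 without scaling to 0.97 with its other probe. Under every setting but the other probe, and relative to the median of all genes, INSIG1 lay at 2.003 to 2.24, SREBF2 at 0.69 to 0.92 and INSIG2 at 0.44 to 0.68. MBTPS1 lay at -0.24 to -0.0099 and SCAP at -0.29 to -0.039.

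**Figure D4:**
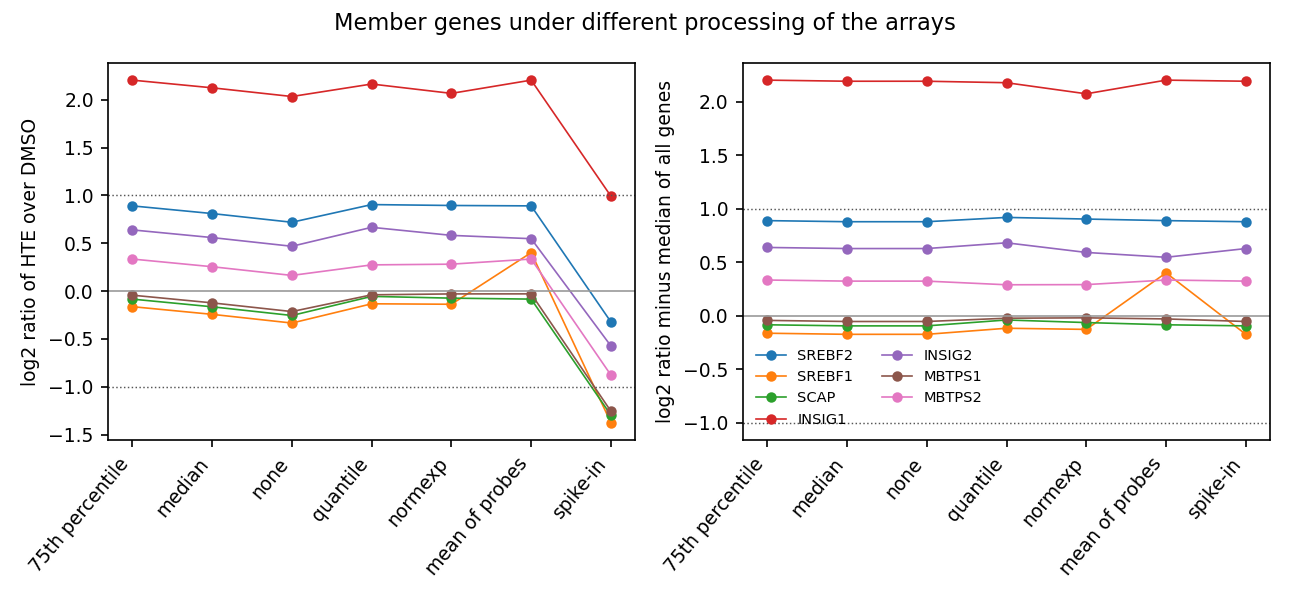
Log2 ratio of each member gene under 7 ways of processing the arrays (left), and the same after the median of all genes was subtracted (right). Lines join the values of a gene to guide the eye. Spike-in scaling lowers all 7 genes together on the left, to 0.99 for INSIG1 and -0.32 for SREBF2, while on the right SREBF1 changes place with the mean of its probes. The other probe of SREBF1, at 0.97, is not drawn.

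Genes of the SREBP processing route, nuclear partners of SREBP and other substrates of the site-1 protease mostly had ratios near 0. Of 47 genes in 5 lists (retention and degradation in the ER, the COPII coat, partners of SCAP and the site-1 protease, other substrates of that protease, and nuclear import, partners and turnover), 19 had a log2 ratio above 0. Of these 47, 1 was at least 2-fold higher (2.13%, against 5.25% of all genes) and 0 were at least 2-fold lower, with a median of -0.042. With spike-in scaling, which lowers all genes, 0 were at least 2-fold higher and 41 at least 2-fold lower. Among all 23752 genes the counts were then 144 and 16035.

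Genes that retain or degrade the complex in the ER were measured at 15 of 15. Their median log2 ratio was 0.0058, 8 were above 0 and 0 were past 2-fold. The highest was FAF2, which recruits the VCP ATPase to membrane proteins bound for degradation, with a signal of 11497 on DMSO and 13174 on HTE and a log2 ratio of 0.37. The lowest was UBE2G2, a ubiquitin-conjugating enzyme of ER degradation, with a signal of 16072.5 on DMSO and 11025.5 on HTE and a log2 ratio of -0.37. Of the ubiquitin ligases in the list, named for that role, RNF139 had a log2 ratio of -0.01 and RNF145 of -0.0087. The list as a whole thus gave small ratios of either sign.

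The COPII coat, which carries SCAP and its cargo out of the ER, was measured at 11 of 11 genes. The median log2 ratio was -0.10, 3 were above 0 and 0 were past 2-fold. They ran from -0.36 for SEC24D, a cargo-binding subunit, to 0.28 for SEC23A, an inner coat subunit. Of the 4 partners of SCAP and the site-1 protease, SPRING1, a cofactor needed for the activity of that protease, had the highest log2 ratio, 0.56, with a signal of 3820.2 on DMSO and 5015.5 on HTE. The lowest was the chaperone HSP90AA1, at -0.11. These ratios were all below 2-fold.

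Other membrane proteins cut by the site-1 protease share the processing route of SREBP. Of 8 such genes, 5 had a log2 ratio above 0, with a list median of 0.087. In this list 1 gene (12.5%, against 5.25% of all genes) was at least 2-fold higher. CREB3L3, a liver transcription factor anchored in the ER, had a signal of 19012 on DMSO and 43684 on HTE, a log2 ratio of 1.37 (2.59-fold). CREB3L2, a related factor, was lowest, at -0.49. Its signal was 37333 on DMSO and 23676.5 on HTE. CREB3L3 was thus the one substrate in the list past 2-fold, and it was brighter on HTE.

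Genes for nuclear import, nuclear partners and turnover of SREBP were measured at 9 of 9, with 2 above 0, 0 past 2-fold and a median log2 ratio of -0.10. The highest was MED15, a Mediator subunit that SREBPs contact, at 0.10. The lowest was NFYB, at -0.72, with a signal of 3160.5 on DMSO and 1708 on HTE. NFYB belongs to NF-Y, the factor that reads CCAAT, and its partner subunits, named after their values were seen, had log2 ratios of -0.66 for NFYA (-0.91 on its other probe) and 0.04 for NFYC, whose 4 probes ran from -0.31 to 0.43. NFYA and NFYB were thus dimmer on HTE by less than 2-fold, and the NFYC probes did not share a direction.

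Genes that SREBPs activate in the nucleus differed from the processing and partner genes in their counts. All these lists were chosen with earlier results of these data known. Of 32 target genes in 2 lists, 29 had a log2 ratio above 0, 11 (34.4%, against 5.25% of all genes) were at least 2-fold higher and 0 (against 3.03%) were at least 2-fold lower, with a median of 0.72. The scaling sets this direction as well. With spike-in scaling 0 were at least 2-fold higher and 5 at least 2-fold lower, against 144 and 16035 of all 23752 genes. Of the targets, 8 were at least 2-fold higher without scaling, against 883 of all genes. Without scaling the list median was 0.64 for SREBP2 targets and 0.31 for SREBP1 targets, and with spike-in scaling -0.40 and -0.73, where the median of all genes was -1.20.

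Among 20 SREBP2 targets, 19 had a log2 ratio above 0 and 9 (45%, against 5.25% of all genes) were at least 2-fold higher. The list median was 0.81. By the brightest probe of each gene, MSMO1, an enzyme that removes methyl groups from sterols, was highest, with a signal of 2321 on DMSO and 6524 on HTE, a log2 ratio of 1.66. HMGCS1, an early enzyme of the mevalonate pathway, had a log2 ratio of 1.44. MVD and IDI1, later enzymes of that pathway, were at 1.34 and 1.32. TMEM97, which was lowest, had a log2 ratio of -0.02. LSS, a cyclase of sterol synthesis named after its values were seen, was at 1.20 on its brighter probe and at 2.22 on its dimmer one. By the brightest probes, INSIG1, at 2.20, thus had a higher ratio than the genes of this list, which does not hold against the dimmer LSS probe, and SREBF2, at 0.89, lay near the list median.

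Among 12 SREBP1 targets, 10 had a log2 ratio above 0 and 2 (16.7%, against 5.25% of all genes) were at least 2-fold higher. The list median was 0.48. ACSS2, which makes acetyl-CoA from acetate, had a signal of 2643 on DMSO and 9761 on HTE, a log2 ratio of 2.06. ME1, which supplies NADPH for lipid synthesis, had a signal of 186 on DMSO and 346 on HTE, a log2 ratio of 1.07. It was short of 2-fold with scaling to the median (0.98), quantile normalization (0.997), normexp correction (0.91) or no scaling (0.89), which leaves ACSS2 alone past 2-fold. THRSP, a regulator of fatty acid synthesis, was lowest at -0.04 and was dim on both arrays, with signals of 113 and 97.7.

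The liver X receptors (LXRs) are sterol-activated factors that are known to switch on SREBF1. Of 6 genes in a list of LXRs and their targets, 2 had a log2 ratio above 0, 3 were below 0 and 1 could not be ordered, with a list median of -0.07. NR1H2, an LXR gene, was not well above background on the DMSO array, at a signal of 74.9, and had a signal of 160.6 with HTE. The 2.41-fold rise is the plain ratio to that dim reading and not a lower limit. The log2 ratio of NR1H2 was 0.72 with normexp background correction and 0.059 with spike-in scaling, so its 2-fold call was lost in both. NR1H2 also dropped out where a probe had to be well above background on both arrays, which left 0 genes of this list at least 2-fold higher. MYLIP, a ubiquitin ligase and LXR target, was lowest, with a signal of 2094 on DMSO and 1213 on HTE and a log2 ratio of -0.62. The other LXR gene, NR1H3, had a log2 ratio of 0.04. Of the remaining targets, named after their values were seen, ABCA1 was at -0.56 and LPCAT3 at -0.13, and ABCG1 went from a signal of 86.7 to 20.2, not well above background on HTE. The 3 targets measured on both arrays thus had ratios below 0 and short of 2-fold, unlike the receptors.

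**Figure D5:**
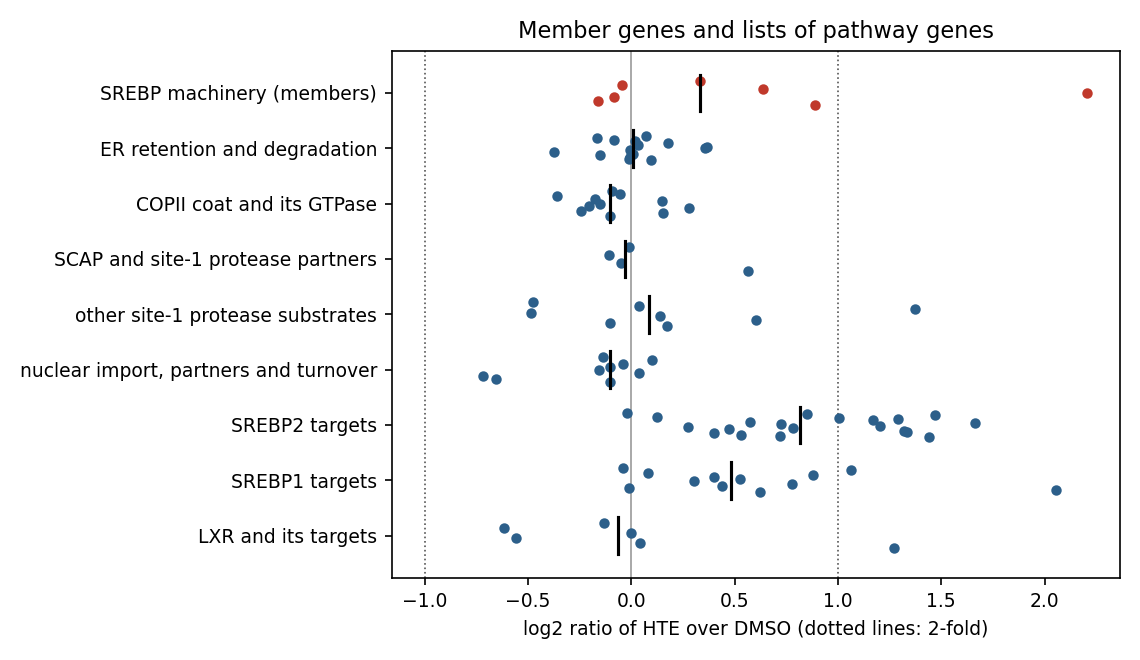
Log2 ratio of HTE over DMSO after scaling to the 75th percentile, for the 7 member genes (red) and for genes of the 8 pathway lists (blue). Each point is a gene, black bars are list medians and dotted lines mark 2-fold. The SREBP2 and SREBP1 targets have medians of 0.81 and 0.48. The lists of processing genes, partners and other site-1 protease substrates have medians between -0.10 and 0.087.

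The target genes were compared with the members by promoter letters as well. Of 15 SREBP2 targets with a window in the RefSeq table, 13 (86.7%) held CCAAT and 14 (93.3%) held GGGCGG, against 32.0% and 42.6% of all windows. Both letters were more frequent among measured genes, where 4952 of 12092 with a window held CCAAT and 8503 held GGGCGG. None of them held ATCACCCC or TCACNCCAC as written, and neither did the 11 SREBP1 targets with a window. Across the 12092 measured genes with a window, 4.80% were at least 2-fold higher. Of the 91 measured genes with ATCACCCC, 2 (2.20%) were at least 2-fold higher, and of the 147 with TCACNCCAC, 12 (8.16%) were. SREBF2 belongs to both groups.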

How the data were processed

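The authors deposited the Agilent Feature Extraction output of 2 one-colour arrays, with version 11.5.1.1 in the file header and 10.7 in the processing notes of the labels. The deposited intensity values are processed signals, which that software background-subtracted and which were not scaled between arrays. The methods name a 2-fold cutoff and no scaling. The number of arrays limits the precision.

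Spots of controls and outliers were dropped, log2 was taken, the 75th percentile of each array was subtracted, and spots of a probe were averaged. Probes were kept if a share of at least 0.5 of their spots on either array was well above background (29680 of 50532). A probe dim on 1 array entered as a bound, set against its own signal there or, if that is higher, the lowest one flagged well above background. RefSeq gene names (GRCh38.p14) matched 28146 probes. The header names another build, so no coordinates are given for probes. The brightest probe stood for a gene.

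The members and the 10 lists, 8 of pathway genes and 2 of markers, were chosen with earlier results of these data known. Named genes are the members, up to the 5 largest 2-fold changes of a list in each direction, and its highest and lowest gene. Other genes are named for their role, and the values of some listed genes are not reported here. The error of a ratio combines the errors the software gives for both signals.

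Alternatives were scaling to the median, to the spike-in RNA or not at all, quantile normalization, normexp correction (offset 50) on median signals, other filters, probes and cutoffs, and, chosen after seeing the data, the median over replicate spots. The steps were tested on simulated data. Tools were Python 3.11.15 (pandas 2.3.3, numpy 2.4.6, matplotlib 3.10.9) and R 4.3.3 (limma 3.58.1).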

Additional observations from a re-analysis of the deposited data

How the results depend on the processing

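INSIG1 stayed between 2.03 and 2.20 on the log2 scale under all alternatives except spike-in scaling (0.99), which subtracts a constant set by 8 spike-in probes whose own unscaled log2 ratios ran from 0.45 to 1.57. With spike-in scaling the other members were at -0.32 for SREBF2, -0.57 for INSIG2, -0.88 for MBTPS2, -1.26 for MBTPS1, -1.30 for SCAP and -1.38 for SREBF1, so 0 member genes were at least 2-fold higher and 3 were at least 2-fold lower. A 1.5-fold cutoff gave 3 member genes higher. The median of the 7 members, 0.33, was 0.25 with scaling to the median, 0.16 without scaling, 0.27 with quantile normalization, -0.88 with spike-in scaling, 0.28 with normexp correction, 0.40 with the mean over probes and 0.25 with the median over replicate spots, an alternative chosen after seeing the data. Spike-in scaling also turned DHCR7 (-0.21), HSD17B7 (-0.043), LSS (-0.0080) and ME1 (-0.15). Among all genes, the 1248 at least 2-fold higher became 144 with spike-in scaling, 825 with normexp correction, 2297 without a filter on dim probes, 2953 at 1.5-fold and 422 at 3-fold. The 720 at least 2-fold lower became 16035 with spike-in scaling, 1209 without scaling, 468 with normexp correction, 1270 without the filter, 1320 where dim probes kept their own value, 2505 at 1.5-fold and 129 at 3-fold. Higher genes were 63.4% of the changed genes, 42.2% without scaling, 0.890% with spike-in scaling and 50.4% where dim probes kept their own value. The median of all genes moved by -0.16 without scaling and by 0.20 without the filter. The causes were not tested apart from the constant shifts and the cutoffs. The normexp correction was planned on mean signals and run on median signals. No paired analysis was possible because each condition has 1 array. Signal over background limits MBTPS2 and the dimmer SREBF1 probe most.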
